A study of Mus musculus with 96 samples.

Results

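Integrated stress response genes, 10 in all, were followed through all 12 groups of a mouse adipose tissue series: the transcription factor genes Atf3, Atf4, Atf5 and Ddit3, and the response genes Trib3, Chac1, Asns, Nupr1, Sesn2 and Ppp1r15a. They were picked by name, with earlier results of these data known. They are 10 of 25049 gene symbols with a value above 0 in the deposited expression table. Counts of members set beside the share of all genes are therefore descriptions and no test of the set. Where a symbol had several transcript rows, the row with the highest mean over the 96 libraries was used. The animals were male C57BL/6J mice, either wild-type or UCP1(-/-), called Ucp1-KO here, which lack the function of Ucp1, the gene of the brown fat uncoupling protein that lets mitochondria burn fuel as heat. Animals of each genotype spent 4 weeks under 1 of 3 conditions. These were a control diet with 13% of its energy as fat at 20 °C, the same food at 30 °C, which is thermoneutral for mice, and a fat-rich food (48% of energy, called the high fat diet) at 30 °C. Interscapular brown fat (iBAT) and inguinal white fat (iWAT) gave 8 libraries per group, and the labels do not tie both depots of an animal to each other. The genotype is labelled UCP1(-/-), and the labels give neither the construction of the allele nor the ages of the mice. No group combined the high fat diet with 20 °C.

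As background, the integrated stress response starts when a stress-sensing kinase phosphorylates the translation initiation factor eIF2. Bulk protein synthesis then falls while the mRNA of the transcription factor ATF4 is translated more efficiently, and ATF4, often paired with a C/EBP protein, switches on genes for amino acid supply, tRNA charging and further stress regulators. CHOP (encoded by Ddit3), ATF3 and ATF5 are transcription factors of the same bZIP family that act downstream of or beside ATF4, and the GADD34 protein (encoded by Ppp1r15a) closes the loop by directing a phosphatase to eIF2. In fat and muscle the response is known to follow disturbed mitochondria and to drive secretion of the hormones FGF21 and GDF15. An mRNA table shows neither eIF2 phosphorylation nor translation of Atf4, so only transcript levels are described here.

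The values are RPKM, read counts divided by transcript length and library size, as deposited. The spacing of low values recovered between about 8910000.0 and 19200000.0 reads per library, and the members rested on a median of 91 (Atf3) to 1783 (Atf4) reads per library. Ucp1 served as the check of the labels: it measured 3793 ± 751 RPKM (SD, n = 8) in wild-type iBAT at 20 °C and 1005 ± 91.7 RPKM (SD, n = 8) in Ucp1-KO iBAT at 20 °C, and the highest knockout iBAT library lay below the lowest wild-type iBAT library under each condition. In iWAT its ranges overlapped, and on the control diet its mean was higher in Ucp1-KO than in wild-type mice. The means there were 306 against 133 RPKM at 20 °C and 83.8 against 33.3 RPKM at 30 °C. On the high fat diet they were 12.9 against 15.3 RPKM. Ucp1 therefore does not check the genotype labels in iWAT. In wild-type iBAT Ucp1 was higher at 30 °C, 8227 ± 577 RPKM (SD, n = 8) on the control diet and 6466 ± 902 RPKM (SD, n = 8) on the high fat diet, than at 20 °C, and every library at 30 °C lay above all those at 20 °C. Ucp1-KO iWAT went the other way on the control diet, with 196 to 597 RPKM at 20 °C and 34.1 to 124 RPKM at 30 °C, without overlap. The means were also higher at 20 °C in wild-type iWAT (133 against 33.3 RPKM) and Ucp1-KO iBAT (1005 against 736 RPKM), with overlapping ranges. Ucp1 thus checks the genotype labels in iBAT and does not settle the temperature labels, on which each temperature comparison rests. RPKM is relative to all reads of a library, and scaling libraries to a common median moved the median difference of all genes by over 0.1 in many comparisons, for example from 0.27 to 0.021 for the iBAT genotype comparison at 30 °C. The median over all genes tested is therefore given for each comparison of the members. Counts of members called higher and lower under median-ratio scaling and quantile normalization are added where they differ. The split of all calls is added where it moved by over 10 percentage points. In whole tissue, fewer cells of a type and less RNA per cell cannot be told apart.

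Motifs of bZIP factors were searched in the 250 bases before the annotated start of each member (RefSeq promoters, build GRCm38.p6; all 10 symbols matched), because the members are factors of this class or their listed targets. The C/EBP-ATF response element, the sequence at which ATF4 and a C/EBP protein bind together, was searched as TGATGNAA on both strands; 4 of 10 members held it, against 3.45% of 32851 promoters. The cAMP response element TGACGTCA was found in 1 member (Ppp1r15a) and in 1.55% of promoters, and the AP-1 site TGANTCA in 1 member (Ddit3) and in 6.75% of promoters. No match of these 3 motifs lay in the windows of Atf4, Atf5, Trib3 or Sesn2. The 6 stretches that hold a match are printed with up to 50 bases on each side, 5′ to 3′ along the gene's strand, with the motif in capitals. They lie at chr1:191183386-191183493 (minus strand, Atf3), chr2:119350999-119351106 (plus, Chac1), chr7:126625523-126625630 (minus, Nupr1), chr6:7693210-7693282 (minus, Asns), chr7:45526269-45526330 (minus, Ppp1r15a) and chr10:127290543-127290607 (plus, Ddit3). The capitals start 110, 193, 110, 23, 12 and 242 bases before the start in that order. Atf3, Chac1 and Nupr1 share the same 8 letters, TTGCATCA, the element read on the other strand, and Asns has TGATGAAA.
Atf3: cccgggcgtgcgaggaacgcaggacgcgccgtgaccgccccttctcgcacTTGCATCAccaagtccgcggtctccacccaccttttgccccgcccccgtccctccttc
Chac1: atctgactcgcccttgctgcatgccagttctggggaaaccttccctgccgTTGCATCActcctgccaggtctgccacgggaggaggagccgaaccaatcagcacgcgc
Nupr1: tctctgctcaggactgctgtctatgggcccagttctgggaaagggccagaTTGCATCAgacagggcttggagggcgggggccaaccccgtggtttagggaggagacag
Asns: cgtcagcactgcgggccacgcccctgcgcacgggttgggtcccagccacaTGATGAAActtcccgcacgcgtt
Ppp1r15a: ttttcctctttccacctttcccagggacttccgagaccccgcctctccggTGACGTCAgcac
Ddit3: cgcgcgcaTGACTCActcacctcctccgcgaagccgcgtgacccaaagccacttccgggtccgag

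Across the 12 groups the group means of Atf3 spanned 23.1-fold, those of Trib3 12.4-fold and those of Atf5 8.84-fold, whereas Asns spanned 2.34-fold and Sesn2 2.07-fold. Per length, Atf4 and Atf5 were the most abundant members in iBAT, with group means of 75.6 to 239 RPKM for Atf4 and 105 to 416 RPKM for Atf5. The lowest group mean of any member was 1.42 RPKM for Atf3 in wild-type iBAT at 20 °C. For 9 of the 10 members the highest group was a Ucp1-KO iBAT group. It was the group at 20 °C for Atf5, Ddit3 and Trib3, the group at 30 °C for Atf3 and Sesn2, and the high fat group for Atf4, Asns, Ppp1r15a and Chac1. Nupr1 was the exception, with its highest mean in wild-type iWAT on the high fat diet (64.1 ± 8.19 RPKM, SD, n = 8). For Sesn2 and Chac1 the next group was a wild-type group at 30 °C (iBAT for Sesn2, iWAT for Chac1), lower by less than the larger SD. How many of all genes had a Ucp1-KO iBAT group as their highest was not counted.

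Placed in order of their means, most neighbouring groups were close. Of 11 neighbouring pairs per gene, between 7 (Atf5, Nupr1 and Ppp1r15a) and 11 (Sesn2) differed by less than the larger SD of the pair. Sorting itself puts like groups side by side, and the SD describes single libraries, so this is no test. A pair this close can still be called by limma, as Asns was between the genotypes in iBAT at 30 °C. Ranges of neighbours did not overlap at 4 places. Atf5 in Ucp1-KO iBAT at 20 °C (352 to 486 RPKM, median 395) lay above the next group, Ucp1-KO iBAT on the high fat diet (227 to 349 RPKM, median 249). Atf4 in wild-type iBAT at 30 °C (108 to 163 RPKM, median 123) lay above the next, Ucp1-KO iWAT at 30 °C (85.9 to 101 RPKM, median 89.5). Atf5 in wild-type iBAT at 20 °C (81.4 to 134 RPKM, median 102) lay above wild-type iWAT on the high fat diet (57.3 to 81.3 RPKM, median 72.1), and Ppp1r15a in wild-type iWAT at 20 °C (8.32 to 11.8 RPKM, median 9.21) above its lowest group, wild-type iBAT at 20 °C (6.53 to 7.97 RPKM, median 7.64).

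**Figure D1:**
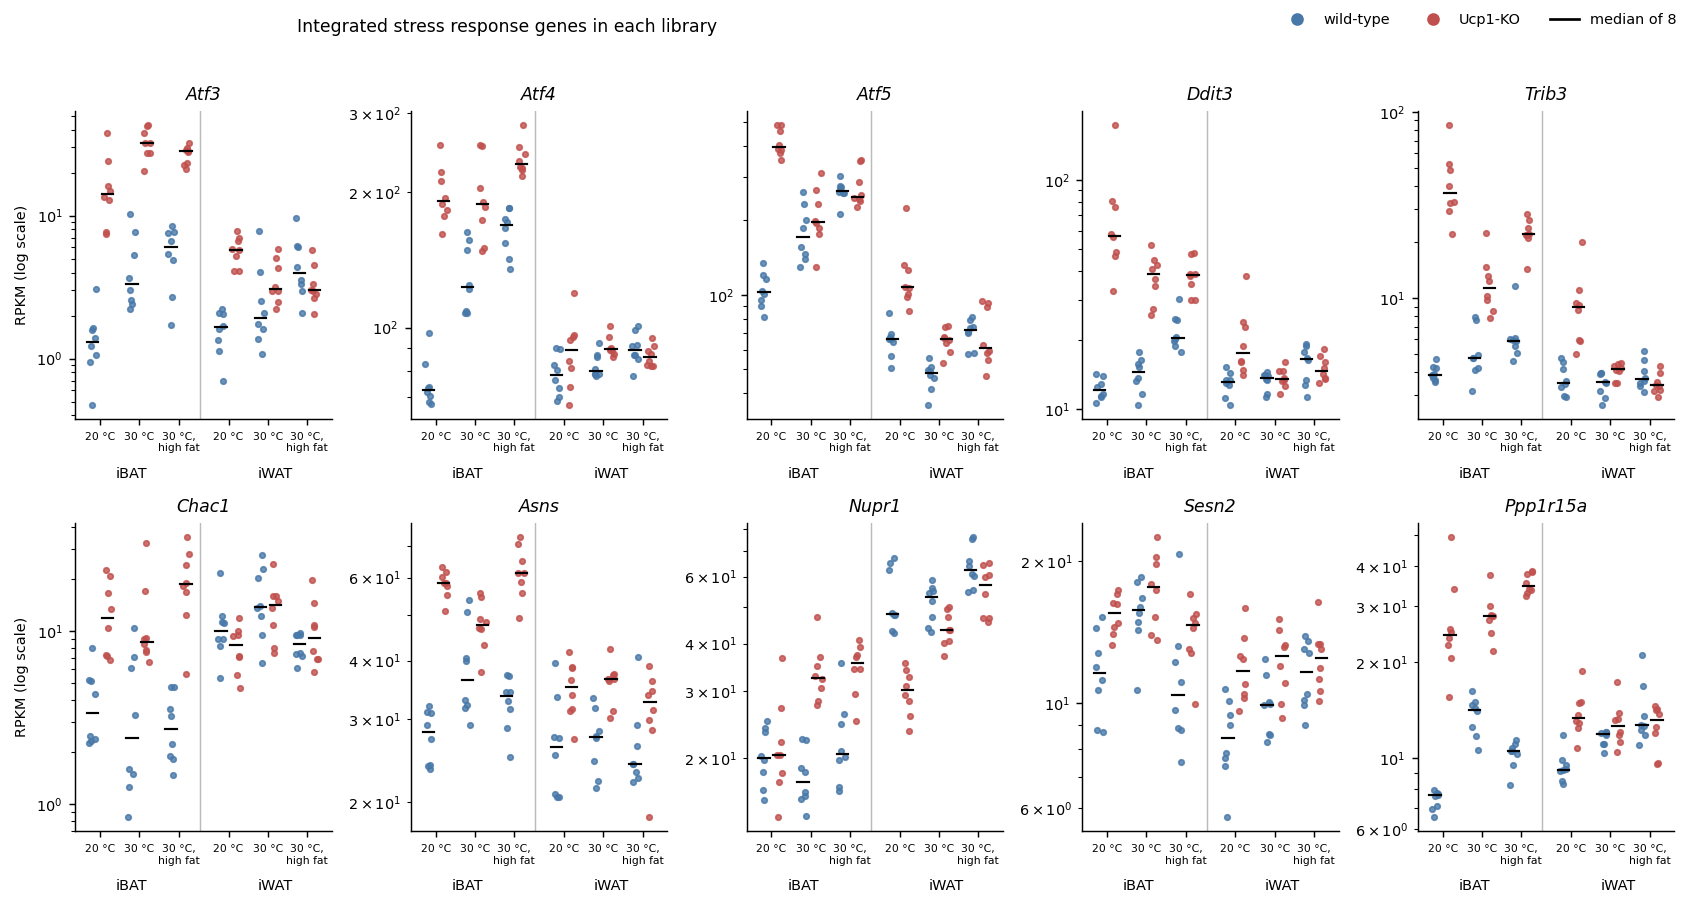
Each panel plots one gene on a logarithmic RPKM axis, with a point per library (blue wild-type, red Ucp1-KO) and a bar at the median of 8, for iBAT left and iWAT right of the grey line. The red iBAT points stand above the blue ones for most genes, as for Trib3 at 20 °C (22.0 to 85.1 against 3.53 to 4.72 RPKM), while Nupr1 is higher in iWAT.

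In iBAT at 20 °C, 9 of the 10 members rose in Ucp1-KO against wild-type mice and none fell, or 8 and 0 after quantile normalization. Of all 14807 genes tested in iBAT, 24.7% rose and 13.1% fell in this comparison (65.4% of those calls were positive, against 52.0% after median-ratio scaling and 46.4% after quantile normalization). The median difference of the members was 1.57 on the log2(RPKM + 1) scale against 0.057 over all genes. On this scale the largest differences were those of Trib3, Atf3 and Ddit3, and Nupr1 did not pass the test.

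ATF4 is the central transcription factor of the response. Atf4 ranged from 67.8 to 97.1 RPKM (median 72.5) in wild-type and from 162 to 256 RPKM (median 191) in Ucp1-KO iBAT at 20 °C. All 8 knockout libraries lay above all 8 wild-type libraries, with a difference of 1.38 (SE 0.10, adjusted p = 4.1e-15), or 2.63-fold in the means. ATF5, a related factor linked to mitochondrial stress, showed a wider gap. Atf5 ranged from 81.4 to 134 RPKM (median 102) in wild-type and from 352 to 486 RPKM (median 395) in knockout mice, without overlap, a difference of 1.98 (SE 0.13, adjusted p = 1.18e-16). The transcript overlaps Nup62 and Il4i1 on the other strand, and whether the counting used strand is not given in the sources used here. Reads of overlapping genes therefore cannot be told apart. ATF3 is a stress-induced repressor and activator of the same family. Atf3 ranged from 0.472 to 3.06 RPKM (median 1.31) in wild-type and from 7.38 to 37.8 RPKM (median 14.1) in knockout iBAT, the groups did not overlap, and the difference was 2.76 (SE 0.26, adjusted p = 3.5e-12), 11.8-fold in the means. CHOP, the product of Ddit3, is the factor tied to cell death under prolonged stress. Ddit3 ranged from 10.7 to 14.2 RPKM (median 12.1) in wild-type and from 32.7 to 173 RPKM (median 57.1) in knockout iBAT. The groups did not overlap, and a single knockout library, number 16, stood far above the next at 81.3 RPKM. The difference was 2.27 (SE 0.18, adjusted p = 1.35e-14) with that library and 2.07 without it. Ddit3 overlaps Mars, which encodes methionyl-tRNA synthetase, and Gm4189 on the other strand.

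TRIB3 is a pseudokinase that binds ATF4 and restrains it. Trib3 ranged from 3.53 to 4.72 RPKM (median 3.87) in wild-type and from 22.0 to 85.1 RPKM (median 36.5) in knockout iBAT at 20 °C, without overlap. On the log2(RPKM + 1) scale it gave the largest difference of the members, 3.03 (SE 0.19, adjusted p = 7e-18), and 2.88 without library 16. In the ratio of mean RPKM it was 10.8-fold higher, against 11.8-fold for Atf3, whose low levels this scale compresses more. Ppp1r15a, whose product GADD34 returns eIF2 to its unphosphorylated state, ranged from 6.53 to 7.97 RPKM (median 7.64) in wild-type and from 15.6 to 49.2 RPKM (median 24.3) in knockout iBAT, also without overlap (1.66, SE 0.12, adjusted p = 6.25e-16). It overlaps Tulp2 on the other strand. ASNS makes asparagine and is a classical ATF4 target. Asns ranged from 23.6 to 32.0 RPKM (median 28.2) in wild-type and from 51.1 to 63.3 RPKM (median 58.3) in knockout iBAT, a narrow spread with a clear gap, and the difference was 1.05 (SE 0.099, adjusted p = 3.83e-12). CHAC1 degrades glutathione. Chac1 ranged from 2.25 to 8.01 RPKM (median 3.38) in wild-type and from 6.85 to 22.5 RPKM (median 12.0) in knockout iBAT. These ranges overlapped, and the difference was 1.47 (SE 0.34, adjusted p = 0.000513). Sestrin 2, from Sesn2, is a leucine sensor that holds back mTORC1. Sesn2 ranged from 8.71 to 15.2 RPKM (median 11.6) in wild-type and from 13.3 to 17.4 RPKM (median 15.5) in knockout iBAT with overlap; the difference of 0.39 (SE 0.13, adjusted p = 0.0163) was the smallest of those called and fell to 0.26 (adjusted p = 0.12) after quantile normalization. NUPR1 is a small stress-induced chromatin protein. Nupr1 ranged from 15.5 to 25.1 RPKM (median 20.1) in wild-type and from 14.0 to 36.6 RPKM (median 20.4) in knockout iBAT, ranges that cover each other (difference 0.072, SE 0.14, adjusted p = 0.734). Macrophage markers moved in the same comparison: 6 of 8 rose and 1 (Cd14) fell, with summed levels of 43.8 to 60.2 RPKM in wild-type and 67.1 to 222 RPKM in knockout iBAT, and all 8 markers were above 0. All 3 erythroid markers rose as well, with summed levels of 14.8 to 297 RPKM in wild-type and 251 to 1504 RPKM in knockout iBAT. The part of either in the members' difference was not tested.

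At 30 °C on the control diet, 8 of the 10 members rose in Ucp1-KO iBAT and none fell, or 7 and 0 under either other scaling, where 54.2% of all genes rose and 10.5% fell (83.7% of those calls were positive, against 51.9% after median-ratio scaling and 42.5% after quantile normalization). The members' median was 0.93 against 0.27 over all genes. Atf3 ranged from 2.23 to 10.2 RPKM (median 3.33) in wild-type and from 20.5 to 43.1 RPKM (median 32.0) in knockout iBAT, without overlap (2.70, SE 0.26, adjusted p = 3.92e-12), a ratio of means of 7.09 against 11.8 at 20 °C. Ddit3 ranged from 10.5 to 17.7 RPKM (median 14.5) and from 25.9 to 51.8 RPKM (median 39.0) in the same order, also apart (1.34, SE 0.18, adjusted p = 1.13e-08). Nupr1, not called at 20 °C, here separated the genotypes: 14.1 to 22.5 RPKM (median 17.4) in wild-type and 27.6 to 47.0 RPKM (median 32.6) in knockout mice (0.87, SE 0.14, adjusted p = 7.06e-07). Ppp1r15a ranged from 10.6 to 16.2 RPKM (median 14.2) in wild-type and from 21.6 to 37.5 RPKM (median 27.9) in knockout iBAT, without overlap, a difference of 0.99 (SE 0.12, adjusted p = 9.04e-10). The other genes called overlapped between genotypes. Trib3 differed by 1.09 (SE 0.19, adjusted p = 2.24e-06), Chac1 by 1.51 (SE 0.34, adjusted p = 0.00015) and Atf4 by 0.57 (SE 0.10, adjusted p = 5.29e-06). Asns differed by 0.31 (SE 0.099, adjusted p = 0.00534), but after median-ratio scaling its difference turned to -0.016. Atf5 (0.22, SE 0.13, adjusted p = 0.146) and Sesn2 (0.16, SE 0.13, adjusted p = 0.283) were not called. All 8 macrophage markers rose in this comparison, with summed levels of 99.8 to 178 RPKM in wild-type and 222 to 1339 RPKM in knockout iBAT, as did all 5 T cell markers and 14 of 15 immediate early genes. White adipocyte markers rose in 2 of 3, with summed levels of 51.7 to 117 RPKM in wild-type and 129 to 375 RPKM in knockout iBAT, without overlap. Brown adipocyte markers, a list that holds Ucp1 itself, fell in 4 of 6 and summed to 10199 to 12744 RPKM and 2549.9 to 5273 RPKM in the same order. The mean sums were 11647 and 3425 RPKM, and Ucp1 alone had means of 8227 and 736 RPKM. The gap in the sum was thus largely that of the gene knocked out. The part of any of these in the members' differences was not tested.

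On the high fat diet at 30 °C, 9 of the 10 members rose in Ucp1-KO iBAT and none fell, or 8 and 0 under either other scaling, beside 52.8% of all genes that rose and 11.0% that fell (82.7% of those calls were positive, against 51.2% after median-ratio scaling and 42.0% after quantile normalization). The members' median was 0.83 against 0.25. Chac1 reached its largest genotype difference of the 3 conditions, ranging from 1.47 to 4.77 RPKM (median 2.72) in wild-type and from 5.68 to 35.0 RPKM (median 18.7) in knockout iBAT, without overlap (2.32, SE 0.34, adjusted p = 1.16e-07). Ppp1r15a ranged from 8.24 to 11.4 RPKM (median 10.5) and from 32.1 to 38.4 RPKM (median 34.6), which left the gap wide and the spread small (1.69, SE 0.12, adjusted p = 5.22e-16). Atf3 (1.73 to 8.43 RPKM, median 6.00, against 21.1 to 32.3 RPKM, median 28.1) also kept the genotypes apart, with a difference of 2.16 (SE 0.26, adjusted p = 1.25e-09). Trib3, Asns and Atf4 did not overlap between genotypes either. Their differences were 1.70 (SE 0.19, adjusted p = 1.52e-10) for Trib3, 0.91 (SE 0.099, adjusted p = 1.24e-10) for Asns and 0.54 (SE 0.10, adjusted p = 1.64e-05) for Atf4. Ddit3 (0.76, SE 0.18, adjusted p = 0.000243) and Nupr1 (0.62, SE 0.14, adjusted p = 0.000168) overlapped. Sesn2 was called at 0.31 (SE 0.13, adjusted p = 0.0343) and turned to -0.0079 after quantile normalization. Atf5 showed no call, with 212 to 303 RPKM (median 263) in wild-type and 227 to 349 RPKM (median 249) in knockout iBAT (0.044, SE 0.13, adjusted p = 0.788). Summed macrophage markers were 72.5 to 243 RPKM in wild-type and 281 to 1045 RPKM in knockout iBAT, and all 5 T cell markers rose. Skeletal muscle markers rose in 4 of 5, with summed levels of 2.99 to 562 RPKM in wild-type and 5.28 to 7215 RPKM in knockout iBAT. The part of any of these in the members' differences was not tested.

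**Figure D2:**
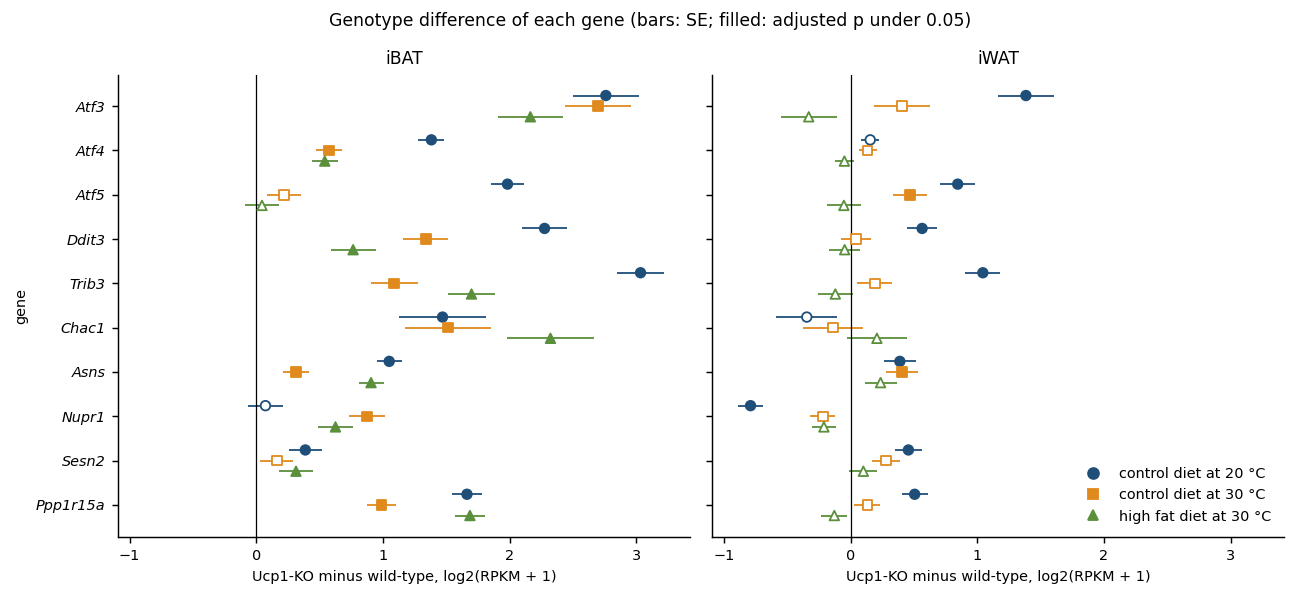
Points give the Ucp1-KO minus wild-type difference in log2(RPKM + 1) for each gene (rows) in iBAT (left) and iWAT (right) under the 3 conditions, with bars for the SE; filled symbols passed the adjusted p threshold of 0.05. In iBAT all 10 genes lie right of 0 in each condition (Asns at 30 °C and Sesn2 on the high fat diet not under every scaling), and at 20 °C Trib3 reaches 3.03; in iWAT the filled points are mostly those at 20 °C, with Nupr1 at -0.79.

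The temperature comparison differed between the genotypes. In wild-type iBAT no member was higher at 20 °C than at 30 °C and 6 were lower, or 1 and 5 under either other scaling. Of all genes 11.6% were higher and 33.0% lower (26.1% of those calls were positive, against 49.7% after median-ratio scaling and 48.7% after quantile normalization), and the members' median was -0.42 against -0.12 for all genes. Ppp1r15a (-0.79, SE 0.12, adjusted p = 3.9e-07) and Atf4 (-0.76, SE 0.10, adjusted p = 5.87e-08) did not overlap between the temperatures in wild-type iBAT. Atf3 (-1.13, SE 0.26, adjusted p = 0.000398), Atf5 (-0.76, SE 0.13, adjusted p = 8.49e-06), Asns (-0.45, SE 0.099, adjusted p = 0.000222) and Sesn2 (-0.39, SE 0.13, adjusted p = 0.0135) were lower at 20 °C with overlapping ranges. The Sesn2 call was lost under both other scalings. Ddit3, Trib3, Chac1 and Nupr1 were not called, and both scalings called Nupr1 higher at 20 °C (0.33 and 0.31). Macrophage markers were lower at 20 °C in 6 of 8, with summed levels of 43.8 to 60.2 RPKM at 20 °C and 99.8 to 178 RPKM at 30 °C, without overlap, and so were 9 of 15 immediate early genes. Their part in the members' difference was not tested.

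In Ucp1-KO iBAT 4 members were higher and 2 lower at 20 °C than at 30 °C, or 6 and 1 after median-ratio scaling. Of all genes 13.9% were higher and 59.5% lower (18.9% of those calls were positive, against 46.9% after median-ratio scaling and 52.7% after quantile normalization). The members' median was 0.10, beside -0.34 for all genes. Trib3 (1.67, SE 0.19, adjusted p = 9.53e-11) was 3.46-fold higher in the cooler mice. Atf5 (1.01, SE 0.13, adjusted p = 6.53e-09), whose ranges did not overlap, Ddit3 (0.75, SE 0.18, adjusted p = 0.000204) and Asns (0.29, SE 0.099, adjusted p = 0.00887) were higher too. Atf3 (-1.06, SE 0.26, adjusted p = 0.000315) and Nupr1 (-0.63, SE 0.14, adjusted p = 0.000104) were the members that were lower at 20 °C, and the Nupr1 difference shrank to -0.22 (adjusted p = 0.116) after median-ratio scaling. Atf4 did not separate the temperatures in Ucp1-KO iBAT: it ranged from 162 to 256 RPKM (median 191) at 20 °C and from 148 to 255 RPKM (median 188) at 30 °C, with a difference of 0.043 (SE 0.10, adjusted p = 0.722), although median-ratio scaling gave 0.46 (adjusted p = 5.43e-05). Ppp1r15a was not called at -0.12 (SE 0.12, adjusted p = 0.378); it was 0.29 with a call after median-ratio scaling and -0.25 with a call without libraries 16 and 64. All 8 macrophage markers and 14 of 15 immediate early genes were lower at 20 °C in knockout iBAT, the direction of Atf3 and Nupr1, and their part was not tested.

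The genotype by temperature interaction, the knockout's 20 minus 30 °C difference less that of the wild-type, was positive and called for 6 members and negative for 1, or 7 and 1 after median-ratio scaling, against 11.9% and 40.5% of all genes (22.7% of those calls were positive, against 47.3% after median-ratio scaling and 53.1% after quantile normalization). The largest values were those of Trib3 (1.94, SE 0.26, adjusted p = 8.74e-08) and Atf5 (1.76, SE 0.19, adjusted p = 3.88e-10). Atf5 moved in opposite directions in the genotypes: it was 1.72-fold higher at 30 °C in wild-type and 1.96-fold higher at 20 °C in knockout iBAT. Ddit3 (0.94, SE 0.25, adjusted p = 0.00175), Atf4 (0.81, SE 0.15, adjusted p = 1.48e-05), Asns (0.74, SE 0.14, adjusted p = 2.93e-05) and Ppp1r15a (0.67, SE 0.17, adjusted p = 0.000762) followed. Nupr1 had the negative value, -0.80 (SE 0.20, adjusted p = 0.000839). Atf3 was not called (0.061, SE 0.37, adjusted p = 0.902): its mean was 3.26-fold higher at 30 °C than at 20 °C in wild-type and 1.96-fold higher in knockout iBAT. Chac1 and Sesn2 were not called. The members' median was 0.70 and that of all genes -0.24.

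**Figure D3:**
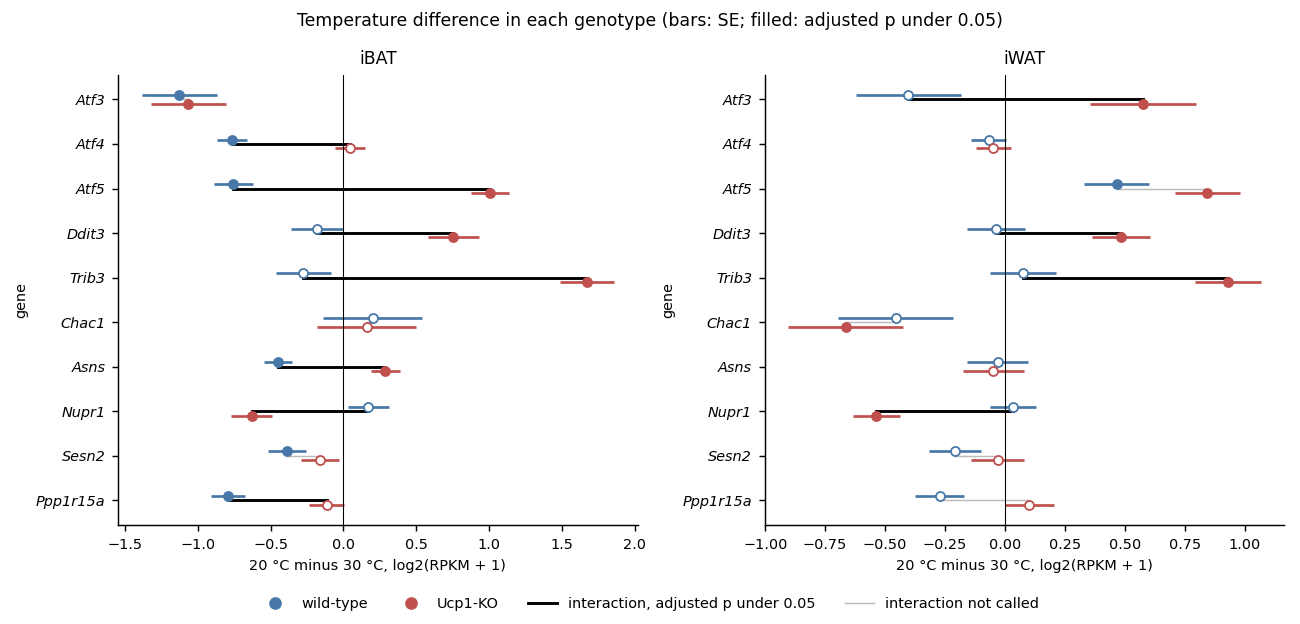
For each gene (rows) the 20 minus 30 °C difference in log2(RPKM + 1) is plotted for wild-type (blue) and Ucp1-KO (red) iBAT and iWAT, bars giving the SE and filled points an adjusted p under 0.05; a black connecting line marks a called interaction. In iBAT the red points of Trib3 (1.67) and Atf5 (1.01) lie far right of the blue ones, while both Atf3 points lie left of 0 (-1.13 and -1.06); the axes of the panels differ.

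The high fat diet was compared with the control diet at 30 °C, so these comparisons share the 30 °C control groups with the temperature comparisons. In wild-type iBAT 3 members rose on the high fat diet and 2 fell, or 3 and 3 after median-ratio scaling, beside 18.5% and 14.5% of all genes. Ddit3 ranged from 10.5 to 17.7 RPKM (median 14.5) on the control diet and from 17.8 to 30.4 RPKM (median 20.4) on the high fat diet, with no overlap (0.60, SE 0.18, adjusted p = 0.00764). Atf5 (0.57, SE 0.13, adjusted p = 0.000799) and Atf4 (0.35, SE 0.10, adjusted p = 0.00822) rose with overlap. Sesn2 (-0.45, SE 0.13, adjusted p = 0.0066) and Ppp1r15a (-0.37, SE 0.12, adjusted p = 0.0128) fell. The members' median was 0.26, against 0.019 for all genes.

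In Ucp1-KO iBAT 5 members rose on the high fat diet and none fell, where 8.35% of all genes rose and 8.02% fell. Trib3 ranged from 7.81 to 22.5 RPKM (median 11.3) on the control diet and from 14.4 to 28.3 RPKM (median 22.0) on the high fat diet, with overlap (0.86, SE 0.19, adjusted p = 0.000944). Asns (0.37, SE 0.099, adjusted p = 0.00712), Atf4 (0.31, SE 0.10, adjusted p = 0.0324), Atf5 (0.39, SE 0.13, adjusted p = 0.0351) and Ppp1r15a (0.33, SE 0.12, adjusted p = 0.0468) rose by less, and with no filter on low values the Atf5 and Ppp1r15a calls were lost, leaving 3. The Ppp1r15a call was also lost with a pseudocount of 0.1, with summed transcript rows and without libraries 32, 54 and 79, the ones least like their group. The members' median was 0.32 beside -0.014. The genotype by diet interaction was called, positive, for 2 members and negative for none, against 2.78% and 3.78% of all genes. These were Ppp1r15a (0.70, SE 0.17, adjusted p = 0.00695), which fell in wild-type and rose in knockout iBAT, and Asns (0.59, SE 0.14, adjusted p = 0.0065). For this interaction the members' median was 0.058 and that of all genes -0.03.

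In iWAT most genotype calls of members were made at 20 °C. There 7 members rose in Ucp1-KO and 1 fell, or 8 and 1 under either other scaling, beside 9.85% and 55.0% of the 15897 genes tested in iWAT (15.2% of those calls were positive, against 54.8% after median-ratio scaling and 51.0% after quantile normalization), and the members' median was 0.48 against -0.27 for all genes. Atf3 ranged from 0.701 to 2.24 RPKM (median 1.66) in wild-type and from 4.10 to 7.75 RPKM (median 5.77) in knockout iWAT, without overlap (1.38, SE 0.22, adjusted p = 1.31e-06). Trib3 (2.93 to 4.78 RPKM, median 3.51, against 5.01 to 19.9 RPKM, median 8.92) and Atf5 (50.5 to 84.1 RPKM, median 66.2, against 86.1 to 223 RPKM, median 107) did not overlap either. Their differences were 1.04 (SE 0.14, adjusted p = 3.98e-08) and 0.85 (SE 0.14, adjusted p = 1.57e-06). A single knockout library, number 64, was the highest of its group in Atf4, Atf5, Ddit3, Trib3 and Ppp1r15a; without it the difference was 0.88 for Trib3 and 0.71 for Atf5. Ddit3 (0.57, SE 0.12, adjusted p = 0.000107), Ppp1r15a (0.51, SE 0.10, adjusted p = 4.5e-05), Sesn2 (0.46, SE 0.11, adjusted p = 0.000423) and Asns (0.39, SE 0.13, adjusted p = 0.00706) rose with overlapping ranges. Nupr1 went the other way: it ranged from 42.8 to 67.0 RPKM (median 48.0) in wild-type and from 23.6 to 35.6 RPKM (median 30.2) in knockout iWAT, without overlap (-0.79, SE 0.098, adjusted p = 1.18e-08). Atf4 missed the threshold at 0.16 (SE 0.072, adjusted p = 0.0544) and passed it after median-ratio scaling (0.53). Chac1 was not called (-0.35, SE 0.24, adjusted p = 0.201). In this comparison 7 of 8 macrophage markers fell, the direction of Nupr1, and all 6 brown adipocyte markers, Ucp1 among them, rose. The part of these markers in the members' differences was not tested.

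At 30 °C on the control diet 2 members, Asns (0.41, SE 0.13, adjusted p = 0.0202) and Atf5 (0.47, SE 0.14, adjusted p = 0.0135), rose in Ucp1-KO iWAT and none fell, or 4 and 0 after median-ratio scaling and 3 and 0 after quantile normalization, where 7.54% of all genes rose and 16.2% fell (31.7% of those calls were positive, against 69.4% after median-ratio scaling and 65.0% after quantile normalization). Without libraries 32, 54 and 79 the Asns call was lost. Median-ratio scaling added Atf4 (0.25) and Sesn2 (0.39). On the high fat diet limma called no member of iWAT in either direction, at a background of 0.195% higher and 0.0881% lower (68.9% of those calls were positive, against 85.4% after median-ratio scaling and 87.9% after quantile normalization), and 1 member (Nupr1) had an unadjusted p under 0.05. The members' medians were 0.16 at 30 °C and -0.050 on the high fat diet, against -0.12 and -0.036 for all genes.

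Between temperatures, wild-type iWAT showed 1 member higher at 20 °C, Atf5 (0.47, SE 0.14, adjusted p = 0.0139), and none lower, beside 7.25% and 12.4% of all genes (37.0% of those calls were positive, against 71.0% after median-ratio scaling and 62.8% after quantile normalization). Ppp1r15a lay just outside the threshold (-0.27, SE 0.10, adjusted p = 0.0511) and passed it in 4 of the alternatives run. In Ucp1-KO iWAT 4 members were higher and 2 lower at 20 °C, or 7 and 0 after median-ratio scaling and 5 and 1 after quantile normalization, against 9.02% and 51.4% of all genes (14.9% of those calls were positive, against 63.3% after median-ratio scaling and 52.9% after quantile normalization). Trib3 (0.93, SE 0.14, adjusted p = 3.9e-07) and Atf5 (0.84, SE 0.14, adjusted p = 1.89e-06) were higher without overlap. Atf3 (0.57, SE 0.22, adjusted p = 0.0235) and Ddit3 (0.48, SE 0.12, adjusted p = 0.000783) were higher with overlap. Nupr1 (-0.54, SE 0.098, adjusted p = 1.29e-05) was lower without overlap and Chac1 (-0.66, SE 0.24, adjusted p = 0.0164) with it, and median-ratio scaling ended both of these calls. That scaling also turned Atf4 and Sesn2 from near 0 to called increases of 0.30 and 0.30. The members' medians were -0.053 in wild-type and 0.035 in knockout iWAT, beside -0.10 and -0.25 for all genes.

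The iWAT genotype by temperature interaction was called and positive for 3 members and negative for 1, or 4 and 0 under either other scaling, against 2.15% and 11.1% of all genes (16.2% of those calls were positive, against 83.8% after median-ratio scaling and 73.0% after quantile normalization). Trib3 (0.85, SE 0.19, adjusted p = 0.00388), Atf3 (0.98, SE 0.31, adjusted p = 0.0319) and Ddit3 (0.52, SE 0.17, adjusted p = 0.0369) were positive, and Nupr1 (-0.57, SE 0.14, adjusted p = 0.00614) was negative. Without libraries 16 and 64 the Ddit3 value was 0.39 and its call was lost, as it was without libraries 32, 54 and 79, and both other scalings ended the Nupr1 call. With no filter on low values the Atf3 and Ddit3 calls were lost, which left 2. The 20 minus 30 °C difference of Atf3 was -0.40 (SE 0.22, adjusted p = 0.185) in wild-type iWAT, against 0.57 in knockout iWAT. For the interaction the members' median was 0.28 and that of all genes -0.16.

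In wild-type iWAT 3 members rose on the high fat diet and 1 fell, or 2 and 1 after quantile normalization, where 9.69% of all genes rose and 3.84% fell. Atf5 ranged from 35.7 to 55.3 RPKM (median 48.4) on the control diet and from 57.3 to 81.3 RPKM (median 72.1) on the high fat diet, without overlap (0.57, SE 0.14, adjusted p = 0.00275). Atf3 (0.67, SE 0.22, adjusted p = 0.035) and Nupr1 (0.31, SE 0.098, adjusted p = 0.0245) rose and Chac1 (-0.75, SE 0.24, adjusted p = 0.0283) fell, all with overlap. In Ucp1-KO iWAT the diet raised 1 member, Nupr1 (0.32, SE 0.098, adjusted p = 0.0132), and lowered none, beside 16.1% and 8.31% of all genes (65.9% of those calls were positive, against 43.8% after median-ratio scaling and 43.3% after quantile normalization), and median-ratio scaling ended that call. For the iWAT genotype by diet interaction limma called 0 members in either direction, at a background of 0.101% positive and 1.23% negative, and 2 members had an unadjusted p under 0.05. The members' medians were 0.21, -0.050 and -0.18 in these 3 comparisons, against -0.0028, 0.093 and 0.075 for all genes.

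The depots were compared within each genotype. In wild-type mice at 20 °C, 2 members were higher in iBAT and 3 lower, or 6 and 2 after median-ratio scaling and 7 and 1 after quantile normalization, beside 15.8% and 64.4% of the 16310 genes tested over both depots (19.8% of those calls were positive, against 45.8% after median-ratio scaling and 55.5% after quantile normalization). At 30 °C 6 were higher and 2 lower, or 8 and 2 under either other scaling, beside 19.5% and 61.8% of all genes (24.0% of those calls were positive, against 44.5% after median-ratio scaling and 52.4% after quantile normalization). On the high fat diet 5 were higher and 3 lower, or 7 and 2 under either other scaling, beside 16.7% and 61.9% of all genes (21.2% of those calls were positive, against 45.2% after median-ratio scaling and 52.9% after quantile normalization). The members' medians were -0.066 at 20 °C, 0.46 at 30 °C and 0.25 on the high fat diet. Those of all genes were -0.43, -0.43 and -0.405 in that order, and median-ratio scaling moved them to -0.055, -0.090 and -0.066. Atf5 was higher in wild-type iBAT under all 3 conditions, by 0.67, 1.89 and 1.89 in that order. Nupr1 was lower under all 3 (-1.33, -1.47 and -1.49), without overlap. Chac1 was lower in wild-type iBAT as well (-1.27, -1.93 and -1.28); at 20 °C the call was lost after quantile normalization. Ppp1r15a was called lower in wild-type iBAT at 20 °C (-0.31) and on the high fat diet (-0.38), and both values turned positive under both other scalings (0.20 and 0.31 at 20 °C, the latter with a call).

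In Ucp1-KO mice 8 members were higher and 1 lower in iBAT under each condition, and in the comparisons at 20 °C and on the high fat diet median-ratio scaling added a 9th that was higher. Of all genes 20.2% were higher and 42.7% lower at 20 °C (32.1% of those calls were positive, against 48.3% after median-ratio scaling and 53.8% after quantile normalization). The percentages were 26.3% and 35.8% at 30 °C. They were 24.5% and 45.0% on the high fat diet (35.3% of those calls were positive, against 45.6% after median-ratio scaling and 49.5% after quantile normalization). The members' medians were 1.005, 1.07 and 1.35 under the 3 conditions in that order, against -0.15, -0.072 and -0.16 for all genes. The member lower in iBAT was Nupr1 each time (-0.47, -0.38 and -0.66). Atf3 was 9.04-fold higher in knockout iBAT than in knockout iWAT at 30 °C (2.88, SE 0.24, adjusted p = 3.43e-18), without overlap. Trib3 was 6.44-fold higher in iBAT on the high fat diet (2.37, SE 0.17, adjusted p = 7.49e-23). Atf4 was 2.24-, 2.15- and 2.75-fold higher in iBAT at 20 °C, at 30 °C and on the high fat diet.

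The tissue by genotype interaction is the knockout difference in iBAT less that in iWAT, so a positive value can come from a rise in iBAT, a fall in iWAT or both. At 20 °C it was called and positive for 9 members and negative for none, or 8 and 0 after median-ratio scaling and 8 and 1 after quantile normalization, beside 48.6% and 7.03% of all genes (87.3% of those calls were positive, against 56.1% after median-ratio scaling and 45.5% after quantile normalization). At 30 °C 7 were positive and none negative, or 5 and 3 after median-ratio scaling and 6 and 3 after quantile normalization, beside 52.7% and 10.4% (83.5% of those calls were positive, against 51.0% after median-ratio scaling and 43.9% after quantile normalization). On the high fat diet 8 were positive and none negative, or 5 and 0 after median-ratio scaling and 7 and 0 after quantile normalization, beside 41.3% and 6.49% (86.4% of those calls were positive, against 49.9% after median-ratio scaling and 41.8% after quantile normalization). Trib3 had the largest value at 20 °C (1.99, SE 0.24, adjusted p = 6.07e-11) and Atf3 the largest at 30 °C (2.29, SE 0.35, adjusted p = 2.45e-08) and on the high fat diet (2.49, SE 0.35, adjusted p = 5.84e-09). Chac1 (1.81, 1.65 and 2.11), Ddit3 (1.71, 1.29 and 0.81) and Ppp1r15a (1.16, 0.85 and 1.81) were called under all 3 conditions, Ddit3 on the high fat diet not after median-ratio scaling. So were Atf3, Atf4 (1.23, 0.44 and 0.59), Trib3 (1.99, 0.90 and 1.82) and Nupr1 (0.86, 1.09 and 0.83). Median-ratio scaling, quantile normalization or both ended the calls of Atf4 and Trib3 at 30 °C and of Atf4 on the high fat diet. Nupr1 at 20 °C (0.86) combined 0.072 in iBAT, not called, with -0.79 in iWAT. Sesn2 was called under none, but at 30 °C Atf5, Asns and Sesn2 were called negative under either other scaling (-0.56 and -0.58 for Sesn2). Median-ratio scaling turned the Atf4 value at 30 °C from 0.44 to -0.035. The members' medians were 1.19 at 20 °C, 0.88 at 30 °C and 0.82 on the high fat diet. Those of all genes were 0.31, 0.36 and 0.25 in that order, and median-ratio scaling moved them to 0.060, 0.047 and 0.012.

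Within groups, some members varied together from library to library. Each value was taken as the deviation from its group mean on the log2 scale, over 48 libraries per tissue; the points share library preparation, depth and tissue composition, so the correlations are descriptions. In iBAT 12 of 45 pairs had a Pearson r above 0.5 (median 0.33), and in iWAT 6 of 45 (median 0.13). How many pairs of other genes lay above 0.5 was not counted. Median-ratio scaling took some iBAT pairs below 0.5, such as Atf3 and Atf4 (0.52 to 0.37). It raised some in iWAT, such as Atf4 and Trib3 (0.61 to 0.745). The closest pair in iBAT was Ddit3 and Trib3 (r = 0.74; 0.61 without the 2 libraries farthest from the median of Ddit3). Atf4 and Atf5 had r = 0.68 in iBAT and 0.65 in iWAT, the former 0.62 and the latter 0.52 without the 2 farthest libraries. In iWAT the closest pair was Atf5 and Trib3 (r = 0.69, and 0.54 without the 2 farthest). For each pair the 2 libraries left out were those farthest from the median of its first-named gene, so they can differ between pairs. Atf4, Atf5, Ddit3 and Trib3 formed the pairs above 0.5 in iWAT, and leaving out those libraries reduced these from 6 to 2. The Ddit3 and Ppp1r15a pair in iBAT rested on few libraries: r went from 0.67 to 0.31. Sesn2 stood apart, with r between -0.27 (Atf4) and 0.23 (Chac1) in iBAT.

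**Figure D4:**
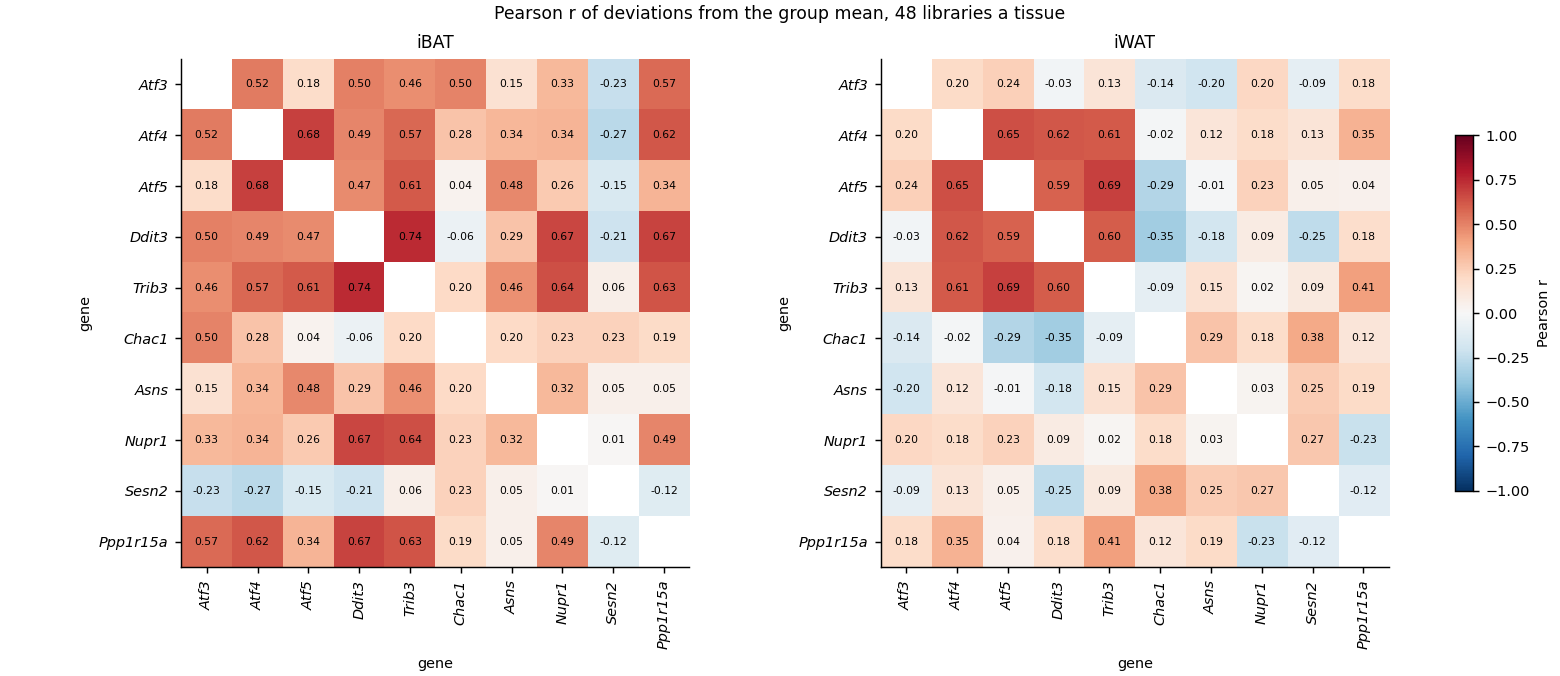
Each cell gives Pearson r between the deviations of a pair of genes from their group means over 48 libraries, for iBAT (left) and iWAT (right), on a colour scale from blue (-1) to red (1). Ddit3 and Trib3 have the darkest cell in iBAT (0.74), and the 6 iWAT cells above 0.5 join Atf4, Atf5, Ddit3 and Trib3.

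Over the 12 group means, the genes most like each member were sought among 9982 named genes that reached 5 RPKM in some group. For Trib3 these were Fgf21 (r = 0.989), Cyb5r1 (0.980) and Ddit3 (0.964), and for Ddit3 they were Hk1 (0.986), Trib3 (0.964) and Cyb5r1 (0.964). Fgf21 encodes a secreted metabolic hormone. Atf3 was most like Nars (0.972), Gdf15 (0.972) and Ctr9 (0.963), Nars being asparaginyl-tRNA synthetase and Gdf15 a stress hormone gene. Atf4 paired with Iars (0.970), Exosc6 (0.970) and Pus1 (0.964), Asns with Xpot (0.955), Yars (0.950) and Eif5 (0.949), and Ppp1r15a with Mthfd2 (0.969), Nars (0.963) and Rab20 (0.961). The nearest genes of Atf5 were Uba3 (0.970), Stk40 (0.963) and Tmem259 (0.962). Those of Nupr1 were Ap3b1 (0.997), Evc2 (0.992) and Mbtps1 (0.991), those of Chac1 Atp6v1g1 (0.943), Cacna2d1 (0.930) and Srp72 (0.925), and those of Sesn2 Lman2 (0.933), Lrrc8d (0.926) and Ccdc127 (0.921). The 12 points share the large differences between the depots and genotypes, and the values describe likeness of pattern alone.

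The wider pathway was read from lists of its known parts, beside all genes, of which 24.7% rose at 20 °C (median 0.057), 54.2% at 30 °C (median 0.27) and 52.8% on the high fat diet (median 0.25) in Ucp1-KO iBAT. The lists, like the members, were chosen with earlier results of these data known, so their counts are descriptions. Lists and cell type markers were fitted on the RPKM as deposited, and not under the other scalings or any further alternative. Those scalings moved the median of all genes at 30 °C to 0.021 (median-ratio) and -0.049 (quantile). Of 19 genes for amino acid synthesis and uptake that ATF4 controls, 14 rose and 1 fell in Ucp1-KO iBAT at 20 °C, with a median of 1.02. Mthfd2, a mitochondrial folate enzyme, differed by 3.46 (SE 0.21, adjusted p = 2.91e-18) and Slc7a5, the large amino acid transporter, by 1.79 (SE 0.13, adjusted p = 6.31e-16). At 30 °C 16 rose (median 0.84) and on the high fat diet 17 rose (median 1.19), with none lower. Slc7a11, which imports cystine, differed by 2.51 (SE 0.16, adjusted p = 6.06e-17) on the high fat diet. Aminoacyl-tRNA synthetases and tRNA export make up the list for tRNA charging, of which 12 of 13 rose at 20 °C (median 1.09), 10 of 13 at 30 °C (median 0.37) and 12 of 13 on the high fat diet (median 0.57), none lower. Wars differed by 2.04 (SE 0.11, adjusted p = 5.14e-20) at 20 °C. The genotype by temperature interaction, which was positive and called for 11.9% and negative for 40.5% of all iBAT genes, was called for 9 of these 13, all positive (median 0.78). Of the amino acid genes it was called for 8 in the positive and 3 in the negative direction, Mthfd2 (2.26, SE 0.29, adjusted p = 3.51e-08) among the former and Slc7a11 (-1.49, SE 0.23, adjusted p = 1.07e-06) among the latter.

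Among 14 further targets of ATF4 and CHOP, 7 rose and none fell in knockout iBAT at 20 °C, and 8 rose and 3 fell at 30 °C. Of all iBAT genes 24.7% rose and 13.1% fell at 20 °C. At 30 °C 54.2% rose and 10.5% fell, and on the high fat diet 52.8% rose and 11.0% fell. The count of these targets that rose at 30 °C is near the share of all genes and is no result about them. Gdf15 differed by 4.83 (SE 0.35, adjusted p = 1.36e-15) and Fgf21 by 4.69 (SE 0.22, adjusted p = 2.33e-21) at 20 °C, on this scale more than any member. The interaction of genotype and temperature was 3.22 (SE 0.32, adjusted p = 3.62e-11) for Fgf21. Chaperones and sensors of the unfolded protein response of the endoplasmic reticulum rose in 13 of 17 at 20 °C (median 0.39), 13 of 17 at 30 °C (median 0.41) and 15 of 17 on the high fat diet (median 0.66). Hspa5, its main chaperone, differed by 0.57 (SE 0.056, adjusted p = 1.4e-11) at 20 °C. Of 10 mitochondrial chaperones and proteases 5 rose at 20 °C, among them Lonp1 (1.36, SE 0.096, adjusted p = 6.43e-16) and Hspa9 (0.90, SE 0.071, adjusted p = 1.44e-14). At 30 °C 3 rose and 4 fell, and Clpx differed by 0.59 (SE 0.072, adjusted p = 3.53e-09) at 20 °C and by -0.49 (SE 0.072, adjusted p = 7.86e-08) at 30 °C. The interaction was positive and called for 6 of the 10, against 11.9% of all genes.

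Upstream, 6 of 15 genes for eIF2, its exchange factor, kinases and mitochondrial stress relay rose at 20 °C and 2 of 15 fell, and 10 of 15 rose and 1 of 15 fell at 30 °C. Of all genes 24.7% rose and 13.1% fell at 20 °C, and 54.2% rose and 10.5% fell at 30 °C. The interferon-induced kinase gene Eif2ak2 differed by 1.42 (SE 0.15, adjusted p = 7.81e-11) at 30 °C. Partner factors of the bZIP family were divided at 20 °C, with 3 of 9 higher and 3 lower: Cebpg, a dimer partner of ATF4, differed by 0.47 (SE 0.084, adjusted p = 1.41e-05) and Cebpa by -0.99 (SE 0.15, adjusted p = 4.44e-07). Targets of NRF2, the oxidative stress factor, and immediate early genes had another profile over the conditions. NRF2 targets rose in 5 of 8 at 20 °C (median 0.49) and 7 of 8 at 30 °C (median 1.17), and immediate early genes in 5 of 15 (median 0.24) and 14 of 15 (median 1.10). Their interaction of genotype and temperature was negative and called for 6 of 8 and 10 of 15, as it was for all 8 macrophage markers (median -1.31) and for 40.5% of all iBAT genes.

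In iWAT at 20 °C 9.85% of all genes rose and 55.0% fell in Ucp1-KO, a median of -0.27. Of the amino acid genes 3 rose and 11 fell in Ucp1-KO (median -0.42), and of the unfolded protein response genes 2 rose and 12 fell (median -0.30). The tRNA genes split 6 higher to 1 lower with a median of 0.12. Mitochondrial chaperones and proteases rose in 7 of 10 (median 0.51), among them Lonp1 (0.97, SE 0.086, adjusted p = 3.03e-12). Fgf21 (1.77, SE 0.23, adjusted p = 2.68e-08) and Gdf15 (1.68, SE 0.22, adjusted p = 2.71e-08) rose in iWAT as well.

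**Figure D5:**
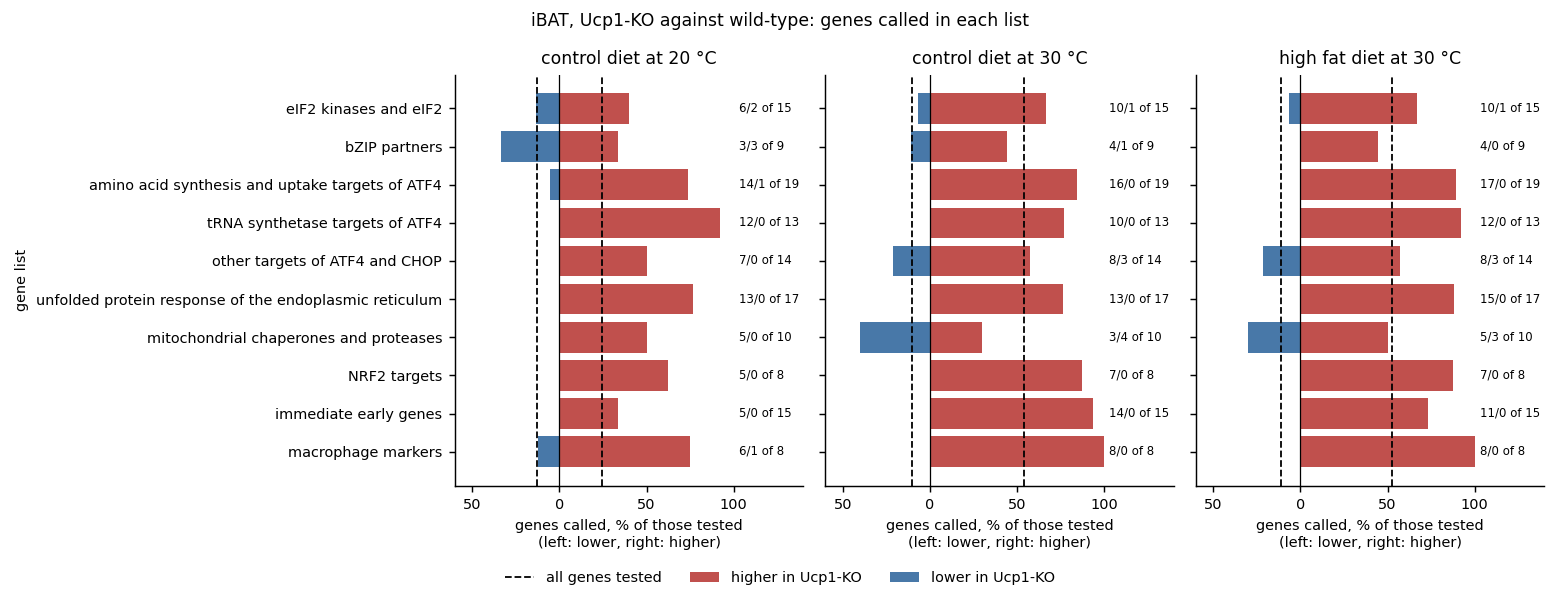
Bars give the percentage of tested genes of each list called higher (red, right) or lower (blue, left) in Ucp1-KO than in wild-type iBAT under the 3 conditions, with the counts beside them and dashed lines at the percentages over all genes tested. The tRNA list reaches 12 of 13 at 20 °C, where 24.7% of all genes were higher; at 30 °C the dashed line stands at 54.2% and the macrophage markers reach 8 of 8.

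Defining markers of other cell types were read for every group. T cell markers summed to at most 26.5 RPKM in any iBAT library, and in iBAT the epithelial markers were too low to be tested, with Krt14 at 0 in all libraries of 5 of the 6 groups. Macrophage markers in iWAT summed to 471 to 961 RPKM in wild-type and 193 to 460.3 RPKM in knockout mice at 20 °C. The general adipocyte markers, whose summed level was 10396 to 14738 RPKM in wild-type and 12608 to 14598 RPKM in knockout iBAT at 20 °C, were above 0 in all libraries of both groups.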

How the data were processed

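RNA from 96 tissue samples was sequenced from stranded mRNA libraries, per the labels' protocols. The authors deposited RPKM values for 168326 transcript rows; CASAVA and bcl2fastq are named per the submitters' processing notes, while none of the aligner, counter, strand setting and reference is given in the sources used here. Rows without a gene identifier (13.8% of rows, 9.85% of summed RPKM) were left out. Values within 0.05 of whole reads made up 95.0% to 95.7% of the low values checked (up to 20 reads), which gave the depths. The row of highest mean stood for each symbol. Differences of log2(RPKM + 1) were tested with limma 3.58.1 (trend, R 4.3.3) on genes with at least 0.5 RPKM in 8 libraries, with 1 mean per group, each tissue apart (48 libraries) and all 96 for depot comparisons. Benjamini-Hochberg adjustment ran over all genes of each of 27 comparisons, threshold 0.05. The code was tested on simulated data. All 10 members are given, with up to 4 genes of smallest p per list and comparison, and the 3 genes most alike in pattern. The members and lists were chosen with earlier results of these data known. Alternatives were a pseudocount of 0.1, no filter, a filter of 2 RPKM, median-ratio scaling, quantile normalization, summed rows and robust variance moderation. Added after seeing the data was leaving out libraries 16 and 64, or 32, 54 and 79 (correlation under 0.96 with their group's median). Library 16 was the highest of its group for 7 members and library 64 for 5. Library 31 (Ucp1-KO iBAT at 30 °C) was so for 5 as well, and no alternative left it out. No 2 libraries held identical values.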

Additional observations from a re-analysis of the deposited data

Results flagged for a closer look

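In 13 of 120 sets of 8 libraries (10 members in 12 groups) the highest value stood apart from the rest by more than Dixon's 95% limit for the gap to the next value over the range. The lowest value of each set was checked in the same way. For normally distributed values about 1 in 20 sets would be flagged at either end. Whether RPKM within a group is so distributed was not checked, so 13 of 120 is no test against chance. Among the knockout groups these were Atf5 in Ucp1-KO iWAT at 20 °C (223 RPKM in library 64, next 132), Ddit3 in Ucp1-KO iBAT at 20 °C (173 RPKM in library 16, next 81.3), Ddit3 in Ucp1-KO iWAT at 20 °C (38.1 RPKM in library 64, next 23.9), Trib3 in Ucp1-KO iBAT at 30 °C (22.5 RPKM in library 31, next 14.6), Trib3 in Ucp1-KO iWAT at 20 °C (19.9 RPKM in library 64, next 11.0) and Chac1 in Ucp1-KO iBAT at 30 °C (32.4 RPKM in library 32, next 17.2). Library 64 appears here for 3 members and was the highest of its group in 5. Among the wild-type groups they were Atf3 in wild-type iBAT at 20 °C (3.06 RPKM in library 2, next 1.64), Atf3 in wild-type iWAT at 30 °C (7.75 RPKM in library 66, next 4.05), Trib3 in wild-type iBAT on the high fat diet (11.6 RPKM in library 37, next 6.07), Chac1 in wild-type iWAT at 20 °C (21.7 RPKM in library 55, next 12.2), Asns in wild-type iWAT on the high fat diet (40.8 RPKM in library 87, next 29.1), Sesn2 in wild-type iBAT on the high fat diet (20.7 RPKM in library 35, next 13.2) and Ppp1r15a in wild-type iWAT at 20 °C (11.8 RPKM in library 49, next 9.84).

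Interactions were called by limma for 37 of the 70 tested over the members. Many genes were called in the same fits: 11.9% of all genes positive and 40.5% negative for the iBAT genotype by temperature interaction, 2.78% and 3.78% for iBAT genotype by diet, 2.15% and 11.1% for iWAT genotype by temperature, and 48.6% and 7.03% (20 °C), 52.7% and 10.4% (30 °C) and 41.3% and 6.49% (high fat diet) for tissue by genotype. A count of members near those shares is no result about the members. The call was lost after median-ratio scaling, quantile normalization or both for Nupr1 in iWAT genotype by temperature and, in the tissue by genotype interaction, for Asns at 20 °C, Atf4 and Trib3 at 30 °C, and Atf4, Ddit3 and Asns on the high fat diet. The iBAT genotype by temperature values on the log2(RPKM + 1) scale were Atf4 (0.81), Atf5 (1.76), Ddit3 (0.94), Trib3 (1.94), Asns (0.74), Nupr1 (-0.80) and Ppp1r15a (0.67). Those of the iBAT genotype by diet interaction were Asns (0.59) and Ppp1r15a (0.70), and those of iWAT genotype by temperature were Atf3 (0.98), Ddit3 (0.52), Trib3 (0.85) and Nupr1 (-0.57). The tissue by genotype interaction, the knockout difference in iBAT less that in iWAT, was positive at 20 °C for Atf3 (1.37), Atf4 (1.23), Atf5 (1.14), Ddit3 (1.71), Trib3 (1.99), Chac1 (1.81), Asns (0.66), Nupr1 (0.86) and Ppp1r15a (1.16). Nupr1 there combined 0.072 in iBAT, not called, with -0.79 in iWAT. The same interaction was positive at 30 °C for Atf3 (2.29), Atf4 (0.44), Ddit3 (1.29), Trib3 (0.90), Chac1 (1.65), Nupr1 (1.09) and Ppp1r15a (0.85), and on the high fat diet for Atf3 (2.49), Atf4 (0.59), Ddit3 (0.81), Trib3 (1.82), Chac1 (2.11), Asns (0.67), Nupr1 (0.83) and Ppp1r15a (1.81).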

How the results depend on the processing

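Differences turned sign mainly under the alternative scalings. Median-ratio scaling gave 0.29 for Ppp1r15a in Ucp1-KO iBAT at 20 minus 30 °C, -0.02 for Asns in the iBAT genotype comparison at 30 °C, 0.30 for both Atf4 and Sesn2 in Ucp1-KO iWAT at 20 minus 30 °C, and -0.03 for the tissue by genotype interaction of Atf4 at 30 °C. For iBAT minus iWAT in wild-type mice it gave 0.50 (Atf4), 0.46 (Ddit3) and 0.20 (Ppp1r15a) at 20 °C and 0.41 (Sesn2) and 0.08 (Ppp1r15a) on the high fat diet. Quantile normalization gave -0.01 for Sesn2 in the iBAT genotype comparison on the high fat diet, and for the same wild-type depot comparisons 0.60 (Atf3), 0.43 (Ddit3) and 0.31 (Ppp1r15a) at 20 °C and 0.43 (Sesn2) and 0.08 (Ppp1r15a) on the high fat diet. The count of members called fell from 5 to 3 for the Ucp1-KO iBAT diet comparison and from 4 to 2 for the iWAT genotype by temperature interaction with no filter on low values, which tests more genes. It rose from 1 to 2 for wild-type iWAT at 20 minus 30 °C with a pseudocount of 0.1, a filter of 2 RPKM, summed transcript rows or without libraries 16 and 64. It went from 2 to 4 after median-ratio scaling and to 1 without libraries 32, 54 and 79 for the iWAT genotype comparison at 30 °C. Median-ratio scaling moved it from 1 to 0 for the Ucp1-KO iWAT diet comparison and from 8 to 5 for the tissue by genotype interaction on the high fat diet, and both scalings from 5 to 8 for wild-type iBAT minus iWAT at 20 °C. Over all genes, calls went from 9598 to 6034 (median-ratio) and 5839 (quantile) for Ucp1-KO iWAT at 20 minus 30 °C, from 2110 to 1378 and 893 for the iWAT genotype by temperature interaction, and from 3781 to 2142 without libraries 32, 54 and 79 for the iWAT genotype comparison at 30 °C. The 212 calls of the iWAT genotype by diet interaction became 341 after quantile normalization, 370 without libraries 16 and 64 and 136 without libraries 32, 54 and 79. Where the setting itself does not show it, the cause was not tested. No paired analysis was run, because the labels name no animal and do not tie iBAT to iWAT libraries. The depot and tissue by genotype fits treated all 96 libraries as independent. Their SE and p would be affected if depots came from the same animals. Atf3, with a median of 91 reads per library, is the member that depth limits most.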
